A study of Mus musculus with 3 samples.

Results

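Dividing plasmablasts were followed in spleen B cells of female wild-type BXD2 mice, which are recombinant inbred and prone to a lupus-like disease. A cell counted as a plasmablast at 5 or more UMIs (unique molecular identifiers, 1 per captured RNA molecule) of Edem1 and 20 or more of Mzb1, and as dividing at 3 or more UMIs of Mki67 and Top2a together. This gave 704 dividing plasmablasts among the 35102 cells that had 500 or more genes, under 10% mitochondrial UMIs and 1 clear hashtag, with 270, 182 and 252 in sets 1 to 3. The comparison groups were the 1873 plasmablasts below 3 division UMIs, called other plasmablasts here, and the 2111 dividing cells outside the plasmablast gate, called other dividing cells. All mice received R848, an agonist of the RNA sensor TLR7, by intraperitoneal injection at 40 µg per 20 g of body weight, so no untreated animals entered any group. In the IL-4+R848 group R848 came 2 hours after IL-4 (5 µg) complexed to anti-IL-4 antibody (25 µg, clone BVD4-1D11), and in the R848 group after 25 µg of that antibody alone. Both injections were repeated after 2 days, and spleens were taken 2 days later from 3 mice per treatment, whose age the labels do not give. Cells of both treatments carried different hashtags and were pooled into 3 single-cell 5' libraries (sets 1 to 3). The labels do not tie a set to single mice, so p-values measure the spread between sets, which may be technical.

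Plasmablasts are the proliferating stage between an activated B cell and a plasma cell. Prdm1 and Irf4 switch off the B cell program, and Xbp1 expands the endoplasmic reticulum (ER) in which antibody is folded, assembled and exported. Edem1 removes misfolded proteins from the ER and Mzb1 is an ER protein of B cells that aids IgM assembly, whereas Mki67 marks cells in cycle and Top2a untangles DNA for mitosis. In lupus, plasmablasts driven by nucleic acid sensors such as TLR7 are a known source of autoantibodies.

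The stretches before the start sites of 4 genes are shown for 2 programs whose genes the gate selects. Kif11 (a spindle motor) and Ckap2l (a spindle protein) stand for the division program. Creld2 and Dnajc3, both ER stress-induced, stand for the ER program, and Dnajc3 is an ER co-chaperone. All are from RefSeq, GRCm38.p6, on the gene's strand, 130 bases ending at the base before the start site, and none overlaps an exon of the vM21 annotation. Kif11 is at chr19:37376252-37376381 (+), Ckap2l at chr2:129297213-129297342 (-), Creld2 at chr15:88819516-88819645 (+) and Dnajc3 at chr14:118937802-118937931 (+). Capitals mark the cell cycle homology region motif (TTTGAA or TTCAAA), the CCAAT box (CCAAT or ATTGG) and the ER stress element (ERSE: CCAAT, any 9 bases, then CCACG, on either strand, so each holds a CCAAT box).
Kif11: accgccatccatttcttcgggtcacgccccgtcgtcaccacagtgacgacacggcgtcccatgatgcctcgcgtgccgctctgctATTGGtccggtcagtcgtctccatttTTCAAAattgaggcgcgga
Ckap2l: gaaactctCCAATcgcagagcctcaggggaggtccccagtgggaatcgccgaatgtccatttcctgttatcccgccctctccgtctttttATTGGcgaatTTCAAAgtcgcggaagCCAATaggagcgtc
Creld2: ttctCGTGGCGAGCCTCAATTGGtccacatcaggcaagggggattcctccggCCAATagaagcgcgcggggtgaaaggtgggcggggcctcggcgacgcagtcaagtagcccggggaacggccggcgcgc
Dnajc3: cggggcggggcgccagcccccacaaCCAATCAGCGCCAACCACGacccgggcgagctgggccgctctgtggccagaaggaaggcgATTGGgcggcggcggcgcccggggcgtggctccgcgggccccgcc
The motif of Kif11 begins 19 bases before the start site and that of Ckap2l 30 bases before it. Among the mitosis genes with a promoter window (36 of 42), 14 (38.9%) held the cell cycle motif within 250 bases before a start site, against 18.3% of all 27025 genes with a window and 12.8% of the tested genes. Of the ER list, 9 of 32 genes (28.1%) held the ERSE, against 0.13% of all genes and 0.17% of the tested ones, and none of the mitosis windows did. These are letter matches on either strand and not measured binding.

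Sets 1, 2 and 3 held 107244246, 96866964 and 99522280 gene UMIs. The 6 sums of dividing plasmablasts, 1 per set and treatment, held 47 to 192 cells and 1434423 to 5277945 UMIs. Their cells were deeper than other plasmablasts, with medians of 24171.5 to 29065 UMIs against 17256 to 20083, and held 3668.5 to 4083 against 2331 to 2679 genes. Immunoglobulin genes took 23.45 to 27.75% of their UMIs against 47.01 to 50.05%, so the rest of the RNA came to 16997.5 to 21099 UMIs per cell against 8115 to 10722. The gate is a fixed UMI count and deeper cells reach it more easily. Barcodes with both hashtags were removed. They were 18.4%, 15% and 19.2% of the barcodes that met the dividing plasmablast gate in sets 1 to 3, and doublets of a single treatment remain. Between 219 and 289 cell barcodes occurred in both of 2 libraries, and 0 of the dividing plasmablasts shared a barcode with one in another set.

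Plasma cell genes that the gate did not use describe these cells. The gate on Edem1 and Mzb1 also selects such genes, so they do not test the label. Sdc1, which encodes the plasma cell surface protein CD138, was detected in 81.4% of dividing plasmablasts, Xbp1 in 99.7% and Prdm1 in 57.8%, against 4.5%, 68.8% and 5.31% of other dividing cells. Tnfrsf17, also a plasma cell marker, was detected in 17.8% of dividing plasmablasts, against 0.9% of other dividing cells. The given division markers Rrm2 and Cdk1 were detected in 69.9% and 61.1%, against 8.86% and 2.30% of other plasmablasts. They describe the gate on Mki67 and Top2a without supporting it. Markers of other lineages were low in the sums. The 7 T cell markers (1 at 0) summed to 4.61 to 34.7 CPM (counts scaled to library size, here over UMIs outside immunoglobulin), the 6 NK markers (3 at 0) to 3.67 to 10.5, the 8 monocyte or macrophage markers (1 at 0) to 10.7 to 38.7 and the 6 neutrophil markers (4 at 0) to 0.921 to 2.01. The germinal center list reached 123.5 to 270.1 and the follicular list 73.2 to 151.1, with none of their genes at 0, against 95.4 to 158.3 and 115.2 to 248 in other plasmablasts. The 7 dendritic markers (2 at 0) summed to 7.35 to 18.9. The 6 B cell precursor markers (3 at 0) reached 92.0 to 200.9, with Vpreb3 in 54.3% of cells, against 202.2 to 325.7 in other plasmablasts. S100a8, Elane, Ncr1, Nkg7 and Cd8a had 0 UMIs, Trac had 3 and Lyz2 had 22 in all 704 cells. Other markers were found more often: Cd68 in 11.1%, C1qb in 9.94%, Lck in 8.24% and Prf1 in 7.81%, against 9.93%, 6.51%, 2.88% and 3.58% of other plasmablasts. At the edges of the gate, the 29 dividing cells with exactly 5 Edem1 UMIs had immunoglobulin at 6.42% of UMIs, and the 43 just outside at 4 had 7.43%.

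A minority inside the gate carried marks of germinal center B cells, the dividing B cells that mutate their antibody genes. In 40 of the 704 dividing plasmablasts immunoglobulin was under 5% of UMIs. These had a median of 46359.5 UMIs and 391.5 UMIs of the germinal center antibody GL7, against 8.5 in the 468 cells with 20% or more immunoglobulin. Their CD138 antibody count was 12, against 358. Pax5, the B cell identity factor, was detected in 70% of the 40 cells, against 12.4% of the 468. Among other plasmablasts, 5 cells were under 5%. Some calls changed without cells under 10% immunoglobulin, a limit that was set after these cells were seen.

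The first comparison asked how plasmablasts in division differ from plasmablasts out of it. UMIs were summed per set and treatment, giving 6 pairs, and tested in edgeR; these levels are CPM scaled within each comparison, so a gene's level differs between comparisons. Values after ± are SDs over 6 sums, or standard errors (SE) beside a log2 fold change. Of 8955 genes tested, 2372 (26.5%) were higher and 2374 (26.5%) lower in dividing plasmablasts at a Benjamini-Hochberg adjusted p under 0.05, together 53% of them, and the median log2 fold change was -0.03. The scaling (TMM) sets the bulk of genes to no difference, so these values are relative to most genes and are not shares of total RNA. Scaled per cell instead, the median became 1.13, and 8253 genes were higher and 73 lower. Directions below are therefore relative to the bulk of genes, and those that changed sign per cell are named.

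The division genes were higher throughout, as a gate on Mki67 and Top2a selects them, and they describe the gate without supporting it. All 42 mitosis genes were higher, with a median log2 fold change of 4.16, as were all 28 replication and nucleotide genes (2.78), all 15 tested licensing genes (3.21) and 15 of 16 replication histones (2.35). Kif11 stood at 43.9 to 54.2 CPM (median 49.4) in the 6 sums of dividing plasmablasts and at 0.234 to 2.19 (median 0.985) in other plasmablasts. The ranges did not overlap, and the log2 fold change was 5.71 ± 0.17 (edgeR adjusted p = 9.262e-08). Ckap2l lay at 29.5 to 49.8 CPM (median 37.9) against 0 to 1.33, again without overlap. Nusap1, which bundles spindle microtubules, differed by 5.73 on the log2 scale and Cdk1, the kinase that starts mitosis, by 5.52. Rrm2, a subunit of the enzyme that makes deoxynucleotides, stood at 179.8 to 278.2 CPM (median 217.4) against 5.26 to 18.9. Mcm3, part of the replicative helicase, was at 49.1 to 81.8 CPM (median 76.8) against 1.21 to 8.04, and Cdc45, its activator, differed by 4.06 on the log2 scale. The nucleotide kinase Tk1 (4.57) and the fork protein Clspn (4.79) followed the same pattern. Every division gene named here was higher in 6 of 6 pairs.

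**Figure D1:**
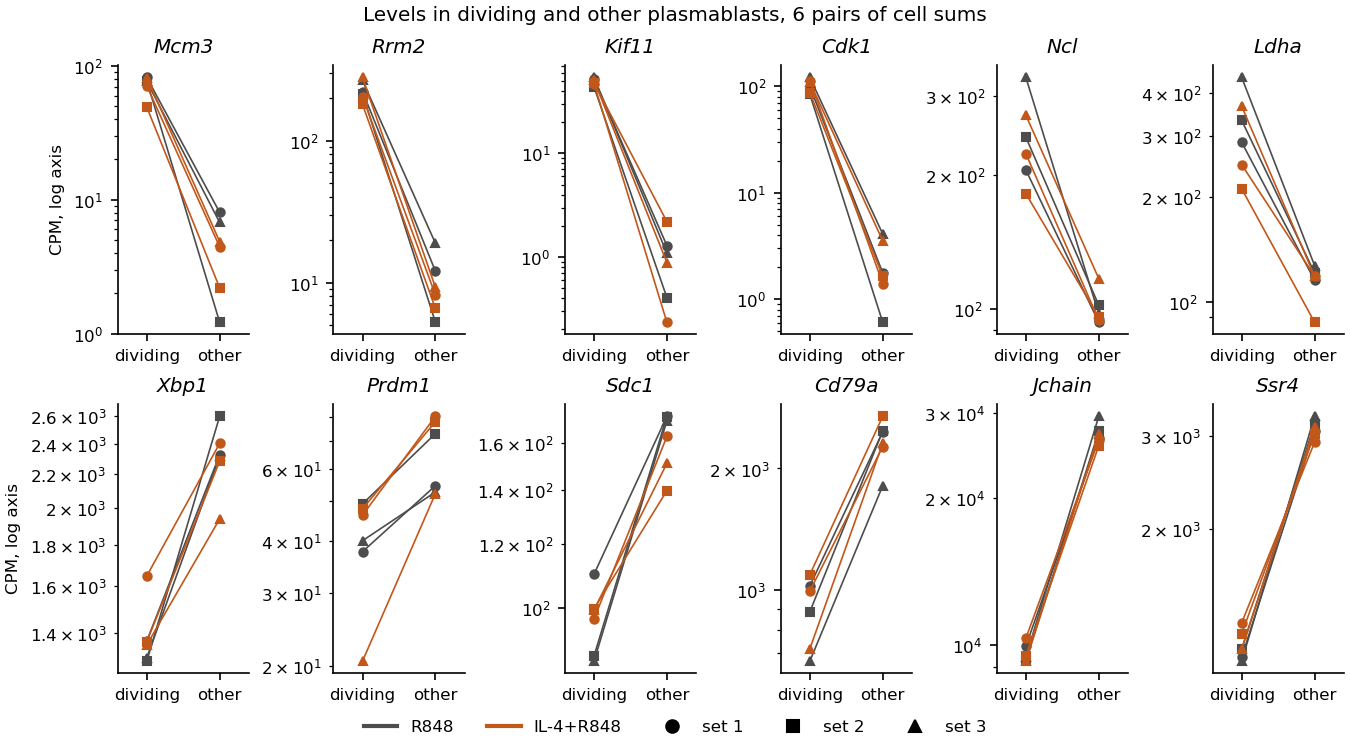
Level of 12 genes in dividing and other plasmablasts (CPM, log axes that differ between panels); each line joins the 2 sums of a set and treatment, colours give the treatment and symbols the set. The upper 6 genes are higher and the lower 6 lower in dividing plasmablasts in 6 of 6 pairs; per cell, Xbp1, Prdm1 and Sdc1 turn to higher (log2 fold changes 0.42, 0.49 and 0.41), while Cd79a, Jchain and Ssr4 stay lower.

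Among regulators of the cycle, 20 of 26 tested cyclin, kinase and E2F genes were higher and 1 was lower. The repressor E2f8 differed by 4.71 ± 0.22 on the log2 scale and Mybl2, a partner of the complex that turns on mitotic genes, by 4.56 ± 0.21. The lower gene was Cdkn1b, the inhibitor p27, at 26.8 ± 4.5 against 38.9 ± 6.49 CPM (n = 6 sums each, log2 fold change -0.54, adjusted p = 0.006659; 0.63 per cell), and its call was lost with cells in a common range of UMIs. Ccnd2 was at 91.3 ± 17.3 against 81.2 ± 8.98 CPM (adjusted p = 0.09321), and passed as higher without cells under 10% immunoglobulin (0.23, adjusted p = 0.03452), with immunoglobulin genes left out and per cell. Cdkn2c differed by 0.38 (adjusted p = 0.003731). Ccnd3 differed by 0.58 and Myc, which encodes a transcription factor, by 0.87. Neither passed without cells under 10% immunoglobulin, nor with cells limited to a common range of UMIs. For Myc these settings gave 0.39 (edgeR adjusted p = 0.207) and 0.33 (edgeR adjusted p = 0.2903). The calls of Ccnd3 and Myc were also lost without set 3.

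DNA repair and p53 genes were higher in 15 of 21 tested and lower in 1, with a median of 1.85. Exo1, a nuclease of mismatch and break repair, differed by 4.80 on the log2 scale. The lower gene was Trp53inp1, a p53 target, at -0.92 (0.23 per cell). Outside all lists, the largest differences upward were Neil3 (6.60), a DNA glycosylase, Pbk (6.58), a mitotic kinase, and Esco2 (6.2), which acetylates cohesin in S phase.

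Relative to the bulk of genes, the antibody and secretory program was lower in dividing plasmablasts. Of 13 antibody constant genes 12 were lower and 0 higher (median log2 fold change -1.21), and of 40 ER folding and secretion genes 33 were lower and 2 higher (median -0.49). Jchain, which joins IgM and IgA into polymers, was at 9247 to 10310 CPM (median 9460) against 25660 to 29480 (median 26820), with no overlap and a log2 fold change of -1.49 ± 0.07. Ighg2c differed by -1.57 ± 0.11 and Ighg1 by -1.63 ± 0.11. Per cell these 3 genes remained lower, at -0.34, -0.41 and -0.47, but the list as a whole then held 1 higher and 3 lower. Ssr4, of the complex that helps proteins into the ER, was at 1121 to 1326 CPM against 2923 to 3273 (log2 fold change -1.37 ± 0.08; -0.21 per cell). The co-chaperone Dnajb9 (-1.19) and Herpud1 (-1.18), of ER-associated degradation, came to -0.03 and -0.03 per cell. Dnajc3, which with Creld2 was chosen for its promoter after values were seen, was at 447.8 to 527.9 CPM against 798.5 to 892.3 (-0.82; 0.33 per cell), and Creld2 at 927.8 to 1336 against 1338 to 2043 (-0.42; 0.74 per cell). The call of Creld2 was lost without cells under 10% immunoglobulin (adjusted p = 0.1301), in the common UMI range and without set 1 or 3. The 2 higher ER genes were Canx, the lectin chaperone calnexin (0.42 ± 0.07), and Ssr1 (0.20 ± 0.06), whose call was lost without any 1 of the 3 sets. Per cell, 35 of the 40 ER genes were higher and 1 lower in dividing plasmablasts. In the gate genes, described only, Edem1 was at 763.1 to 1041 CPM against 1468 to 1716.

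Plasma cell regulators followed the secretory genes. Of 10 tested fate genes 7 were lower and 0 higher. Xbp1 was at 1294 to 1648 CPM (median 1362) against 1938 to 2594 (median 2320), with a log2 fold change of -0.73 ± 0.09 (adjusted p = 0.0002082). Prdm1 was at 20.5 to 49.3 CPM (median 43.2) against 52.1 to 80.2 (-0.67 ± 0.10). Tent5c, which lengthens immunoglobulin mRNA tails, differed by -0.75 and Irf4 by -0.30 (adjusted p = 0.01325). Sdc1 was at 86.1 to 110.2 CPM against 139.8 to 172.7 (-0.75 ± 0.08). The ranges of the first 3 genes and of Sdc1 did not overlap. Per cell, Xbp1, Prdm1, Tent5c, Sdc1 and Irf4 turned positive (0.42, 0.49, 0.40, 0.41 and 0.86). The call of Irf4 was lost without set 1 or 3, without the block, with no count filter and without cells holding markers of other cell types. Of 18 tested plasma cell survival and surface genes 15 were lower and 0 higher. Ly6c2, a surface antigen, was at 233.1 to 287.7 CPM against 647.3 to 1207 (-1.75 ± 0.14) and Lag3, an inhibitory receptor, differed by -2.07 ± 0.36; both remained lower per cell, at -0.59 and -0.93. Stress factors moved alike, with 7 of 8 lower, among them Ppp1r15a (-1.16), which restarts translation, and Chac1 (-1.96), which degrades glutathione. Per cell neither passed, at -0.01 (edgeR adjusted p = 0.9634) and -0.84 (edgeR adjusted p = 0.09969). The Chac1 call was also lost without set 3.

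Growth genes differed the other way. Of 23 ribosome biogenesis genes 20 were higher and 0 lower (median 0.75), and of 13 tested glycolysis genes 9 were higher and 0 lower (0.64). Ncl, the nucleolar protein nucleolin, stood at 181.5 to 330.7 CPM (median 232.9) against 93.4 to 117.1 (median 96.8), a log2 fold change of 1.26 ± 0.10, and Nhp2, which guides ribosomal RNA modification, differed by 1.69. Ldha, which makes lactate, was at 211.7 to 444 CPM against 87.2 to 127.1 (1.43 ± 0.10), and Eno1 differed by 1.41. Amino acid supply was split, with 8 of 14 tested genes higher and 5 lower. Psat1, of serine synthesis, was at 51.6 to 81.6 CPM against 10.6 to 23.8 (2.02 ± 0.15), and Shmt1, which feeds one-carbon units from serine into nucleotides, differed by 3.62. Slc3a2, the shared chain of large amino acid transporters, was lower (-1.17; -0.02 per cell). In the respiratory chain 12 of 22 genes were higher and 2 lower (63.6% called, beside 53% of all genes tested), with a small median of 0.24. Cycs (cytochrome c) was at 0.57 and Ndufa1 at -0.94 (0.22 per cell).

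The B cell program showed no common direction. Of 20 B cell identity genes 2 were higher and 7 lower (45% called, beside 53% of all genes tested; median -0.08). Cd79a, of the B cell receptor, was at 668.6 to 1093 CPM against 1813 to 2691 (-1.39 ± 0.09; -0.24 per cell), and Cd79b differed by -0.81 (0.35 per cell). Spib, a B cell transcription factor, was higher (0.96), but its call was lost without cells under 10% immunoglobulin and in the common UMI range; both settings left 0 identity genes higher. Pax5 differed by 0.37 ± 0.28 (adjusted p = 0.3048) and Bach2, which restrains plasma cell differentiation, by -0.04 ± 0.14 (adjusted p = 0.8215). MHC class II genes were 3 higher and 6 lower of 13, Cd74 at -0.75 (0.41 per cell) and H2-Ob at -0.92 (0.23 per cell), and 0 higher and 7 lower without cells under 10% immunoglobulin. Among 19 tested migration genes 4 were higher and 6 lower, so 52.6% were called, about the 53% of all genes tested. S1pr1, which draws cells out of lymphoid tissue, was lower (-0.86), as were its regulator Klf2 (-0.84) and the gut-homing integrin chain Itgb7 (-0.89); per cell they came to 0.31, 0.31 and 0.28. Cxcr4, the receptor that holds plasma cells in bone marrow and red pulp, was higher by 0.42 (adjusted p = 0.0154, lost in the common UMI range, without set 1, with DESeq2, without the block and without cells holding foreign markers). S1pr2 was higher by 0.76, a call lost in the common UMI range, without set 1, without cells holding foreign markers and without cells under 10% immunoglobulin.

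Interferon-induced genes were lower together, 15 of 16 tested with 0 higher (median -0.70). Isg20, a nuclease for viral RNA that plasma cells also express, was at 180.6 to 253.4 CPM against 388.9 to 451.3 (-0.99 ± 0.08), and Zbp1, a sensor of unusual nucleic acids, differed by -0.94; per cell they came to 0.17 and 0.22. Of 15 tested TLR7 pathway genes 7 were lower and 0 higher (46.7% called, beside 53% of all genes tested). Tlr7 itself differed by -0.83 (0.33 per cell) and the inhibitor Nfkbia by -0.82 (0.34 per cell). Genes that respond to tissue handling were 3 higher and 10 lower of 16: Dusp1 and Zfp36 were lower (both -1.36), and the chaperones Hsp90aa1 (1.63) and Hspa8 (1.06) higher. Per cell, Dusp1 (-0.20) and Zfp36 (-0.21) did not pass, and Hsp90aa1 (2.78) and Hspa8 (2.21) stayed higher. The part of handling in these differences was not tested. Of the IL-4 genes, Il4i1, a secreted amino acid oxidase, was lower (-0.60, adjusted p = 0.01438; 0.52 per cell; call lost without set 3), while Il4ra (-0.17, adjusted p = 0.6102) and Nfil3 (0.16, adjusted p = 0.3506) did not pass. Without cells under 10% immunoglobulin, Il4ra passed as lower (-0.74, adjusted p = 0.04002), and per cell it passed as higher (0.97, adjusted p = 0.005569). Outside all lists, the 5 largest falls by the naming rule were antibody variable genes carried by few cells, such as Ighv1-12, whose 3841 UMIs in dividing plasmablasts came 69.57% from 1 cell. Outside these genes, Prg2, chosen after its value was seen and known as an eosinophil granule protein that plasma cells also transcribe, was at 26.2 to 87.2 CPM against 190.3 to 416.7 (-2.72 ± 0.15; -1.56 per cell). Gpx3, a secreted peroxidase chosen in the same way, differed by -2.36 (-1.18 per cell).

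Immunoglobulin share fell step by step with division UMIs within the plasmablasts, whereas Sdc1 did not. From cells with 0 division UMIs to cells with 3, 5 to 9 and 10 or more, the median depth went from 17266.5 to 20067, 23406.5 and 30626.5 UMIs. Over the same cells immunoglobulin went from 51.4% of UMIs to 41.9%, 29.1% and 21.0%. Counted over UMIs outside immunoglobulin, Sdc1 stood at 256.2, 255.0, 287.8 and 256.1 CPM at 0, 1, 2 and 3 division UMIs. At 4, 5 to 9 and 10 or more it stood at 188.2, 209.4 and 126.5. The 250 cells at 2 division UMIs, just outside the gate, and the 109 at 3, just inside, had immunoglobulin at 43.99% and 41.9% of UMIs and Rrm2 at 29.6 and 56.6 CPM on the same base. These values use the counts that set the gate and are a description only.

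**Figure D2:**
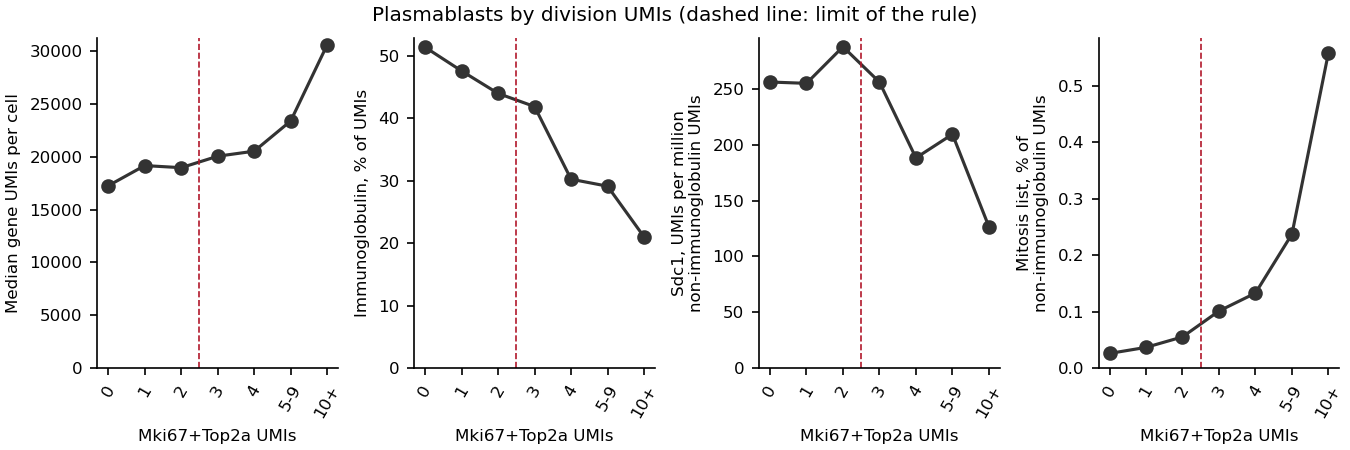
Plasmablasts grouped by Mki67 and Top2a UMIs (x axis; the dashed line is the limit of the rule at 3): median gene UMIs per cell, percent of UMIs from immunoglobulin genes, Sdc1 as CPM over non-immunoglobulin UMIs, and percent of non-immunoglobulin UMIs in the 42 mitosis genes. Depth and mitosis genes are highest and immunoglobulin and Sdc1 lowest in the 384 cells with 10 or more division UMIs.

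The second comparison set dividing plasmablasts against the other dividing cells of the same sums, to ask what separates them from other cells in cycle. Of 9637 genes tested, 3103 (32.2%) were higher and 3117 (32.3%) lower, together 64.5%. These values too are relative to the bulk of genes and not shares of total RNA, and no scaling per cell was run here. Other dividing cells were shallower, with medians of 13687 to 16608.5 UMIs, and immunoglobulin took 1.861 to 2.238% of their UMIs. The other dividing cells are mostly B cells but hold other lineages: NK markers reached 2386 CPM outside immunoglobulin in 1 of their sums and neutrophil markers 246.4, and Prtn3 (-7.94) and Lyz2 (-5.75), both of myeloid cells, were among the genes lower in plasmablasts. The part of these cells in the results was not tested beyond leaving out cells with 2 or more UMIs of foreign markers, which changed 1 call among the genes named below (Cdk1 then passed).

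The secretory program, which the Edem1 and Mzb1 gate selects, was higher throughout. All 40 ER genes were higher (median log2 fold change 2.88), as were 9 of 11 tested fate genes and 15 of 17 survival and surface genes. Creld2 was at 1401 to 2002 CPM against 58 to 77.9 (4.69 ± 0.07) and Dnajc3 differed by 3.27. Hsp90b1, the ER chaperone GRP94, differed by 4.36 and Fkbp11, an ER prolyl isomerase, by 6.28. Xbp1 stood at 1930 to 2485 CPM against 113.2 to 181.7 (3.89 ± 0.09), Prdm1 differed by 3.75, Irf4 by 3.28 and Tent5c by 3.63. Sdc1 was at 128.7 to 166.5 CPM against 2.29 to 3.81 (5.56 ± 0.10). Tnfrsf17, the survival receptor BCMA, differed by 4.61, and Cd28 by 4.22. The homing receptor Ccr10 was at 15.1 to 43.6 CPM against 0 to 1, Cxcr3 at 86.4 to 103.9 against 13.2 to 22.6, and Selplg, a selectin ligand, differed by 2.40. Pycr1, of proline synthesis, differed by 4.87, Srm, of spermidine synthesis, by 2.17 and Atp5g1, of the ATP synthase, by 1.70; in the respiratory chain 17 of 22 genes were higher and 0 lower. Isg20 (4.36) and Bst2 (2.91), both interferon-inducible, were higher. Their list held 7 higher and 2 lower of 17 (52.9% called, beside 64.5% of all genes tested). Vsir, an immune checkpoint gene, differed by 3.76. Outside the lists, Pgam2, a phosphoglycerate mutase, had the largest rise (8.61).

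All 20 B cell identity genes were lower (median -1.86), among them Pax5 (-2.14), Bach2 (-2.87) and Spib (-2.69), and 11 of 13 MHC class II genes were lower with 1 higher. Germinal center genes were lower too. Bcl6, their master regulator, was at 4.33 to 8.63 CPM against 39.9 to 59.6 (-3.13 ± 0.13), and the positioning receptors S1pr2 (-2.46) and Cxcr5 (-2.19) followed. Il4ra, the IL-4 receptor chain, differed by -2.17 ± 0.24, and 10 of 13 tested IL-4 and STAT6 genes were lower with 1 higher. Cxcr4 differed by -0.26 (adjusted p = 0.3644) and Nfil3 by -0.14 (adjusted p = 0.7455).

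The 2 groups differed in their D-type cyclins, the partners of CDK4 and CDK6 in G1. Ccnd2 stood at 103.2 to 177 CPM (median 141.5) in dividing plasmablasts and at 17.8 to 30.4 (median 20.7) in other dividing cells, a log2 fold change of 2.62 ± 0.11. Ccnd3 was the reverse, at 47.9 to 81.5 CPM (median 58.7) against 203.1 to 294.3 (median 266.8; -2.09 ± 0.11). Neither pair of ranges overlapped, and all 6 pairs held each direction. Cdk6 differed by -1.22 and Myc by -0.69, whereas Cdkn1b (-0.06, adjusted p = 0.6395) and Cdkn2c (-0.05, adjusted p = 0.5795) did not pass. Under the stricter hashtag rule Cdkn1b passed as lower.

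Relative to the bulk of genes, most of the division program was lower than in other dividing cells. Of 42 mitosis genes 31 were lower and 0 higher (median -0.50), and of 28 replication genes 22 were lower and 4 higher. Kif23, a motor of the midbody, differed by -1.50, Cenpf, a kinetochore protein, by -1.05, and Kif11 by -0.71 and Ckap2l by -0.38, both carried over from the promoters shown. Pold1, the catalytic subunit of DNA polymerase delta, differed by -1.48. Among the 4 higher genes, Rrm2 was at 269.5 to 417 CPM against 174 to 216 (0.77 ± 0.08) and Tyms, thymidylate synthase, differed by 0.41. Cdk1 (0.20 ± 0.10, adjusted p = 0.1228) did not pass. It passed as higher with immunoglobulin genes left out, without set 2 and without cells holding foreign markers. Histone H2afx, a marker histone of DNA damage when phosphorylated, was lower (-1.27), and Hist1h2bc higher (2.13). Of 23 repair and p53 genes 12 were lower and 3 higher, so 65.2% were called, about the 64.5% of all genes tested. Trp53inp1 differed by 2.40. In the gate genes, described only, Mki67 was at 462.9 to 576.4 CPM against 504.6 to 638.2, and Top2a at 202.8 to 259.2 against 332.8 to 417.6.

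**Figure D3:**
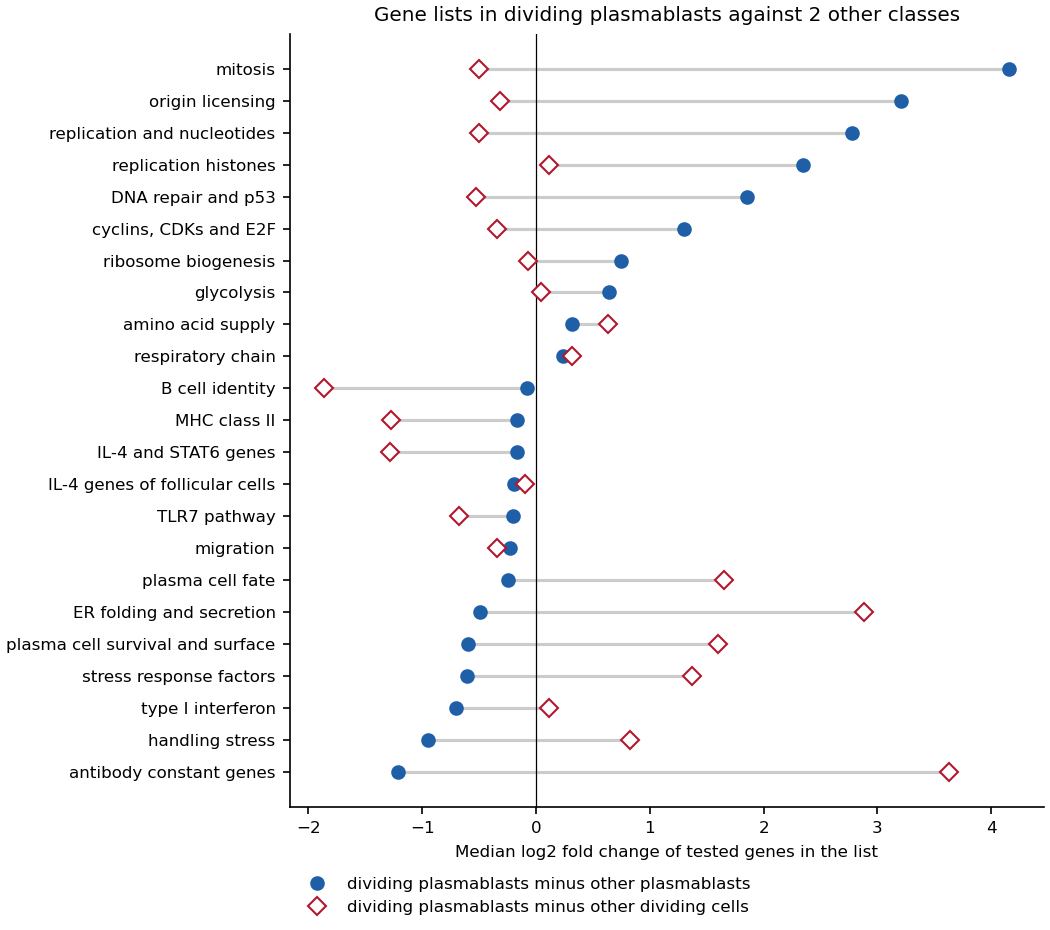
Median log2 fold change of the tested genes of 23 lists, for dividing plasmablasts against other plasmablasts (filled circles) and against other dividing cells (open diamonds). Division lists lie at 1.30 to 4.16 in the first comparison and within 0.53 of 0 in the second, ER folding and antibody lists at -0.49 and -1.21 in the first and at 2.88 and 3.63 in the second; per cell, the median of all genes in the first comparison moves from -0.03 to 1.13.

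Both plasmablast groups held all 7 antibody classes. By the class with most heavy chain UMIs (at least 10 UMIs and a share of 0.6), 252 dividing plasmablasts were IgM, 182 IgG2c, 121 IgG2b, 80 IgG1, 33 IgG3, 18 IgA and 1 IgE, and 17 had no class. The share dividing was 26.4% of IgM, 25.7% of IgG2c, 30.0% of IgG2b, 27.9% of IgG1, 27.3% of IgG3 and 25.7% of IgA plasmablasts. IgM made up 38.2 ± 11.6% of classed dividing and 40.9 ± 10.6% of other plasmablasts, a difference of -2.69 points (lower in 5 of 6 pairs; exact sign-flip permutation p = 0.09375, adjusted 0.179 over 21 measures). IgG2c differed by -1.84 points (exact sign-flip permutation p = 0.3438, adjusted 0.4247). The dividing cells were not a single clone: 693 cells with an assigned heavy chain variable gene used 81 of them, the most frequent in 50 cells.

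Surface antibodies gave differences that did not pass the family correction. GL7 was at 4.16 ± 0.358 (log2 of UMIs plus 1, mean of 6 sums) against 3.44 ± 0.441, higher in 6 of 6 pairs (exact sign-flip permutation p = 0.031, the smallest 6 pairs allow; adjusted 0.07292). IgD, CD23, CD95, CD11c, CD27, CD273 and CD80 were also higher in 6 of 6 pairs with the same p, by 0.21 to 0.482, and so was the cells' own hashtag, by 0.289. The hashtag level moved with these differences, and its part in them was not tested. As a share of a cell's antibody UMIs, CD23 was lower (-0.238 points). CD138 differed by 0.15 (5 of 6 pairs, exact sign-flip permutation p = 0.1562) and by -0.852 points as a share. Against other dividing cells, CD138 was higher by 4.80 and GL7 lower by 2.46 log2 units, in 6 of 6 pairs each (exact sign-flip permutation p = 0.031, adjusted 0.04375).

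The third question was what IL-4 complex did to these cells. Their share among plasmablasts was 25.35%, 30.61% and 24.15% with R848 (sets 1 to 3) and 31.08%, 31.33% and 27.78% with IL-4+R848. The means were 26.7 ± 3.44% and 30.1 ± 1.98% (SD, n = 3 sets each), a difference of 3.36 points (two-sided exact permutation p = 0.2, where 3 against 3 cannot go below 0.1). The share was higher with IL-4+R848 in 3 of 3 sets (exact sign-flip permutation p = 0.25, the smallest 3 pairs allow). With cells thinned to 10000 UMIs, the limit was 1 division UMI instead of 3, so the shares are not comparable with those above. They were 46.36%, 47.19% and 46.23% with R848 (sets 1 to 3) and 47.0%, 48.97% and 46.53% with IL-4+R848. Plasmablasts under 10000 UMIs, 5 to 41 per sum, were left out. Of all cells, dividing plasmablasts were 2.33 ± 0.259% with R848 and 1.54 ± 0.764% with IL-4+R848 (exact permutation p = 0.3), and all plasmablasts 8.81 ± 1.52% and 5.10 ± 2.37% (exact permutation p = 0.1). Neither difference passed, and shares of cells say nothing of cell numbers per spleen.

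**Figure D4:**
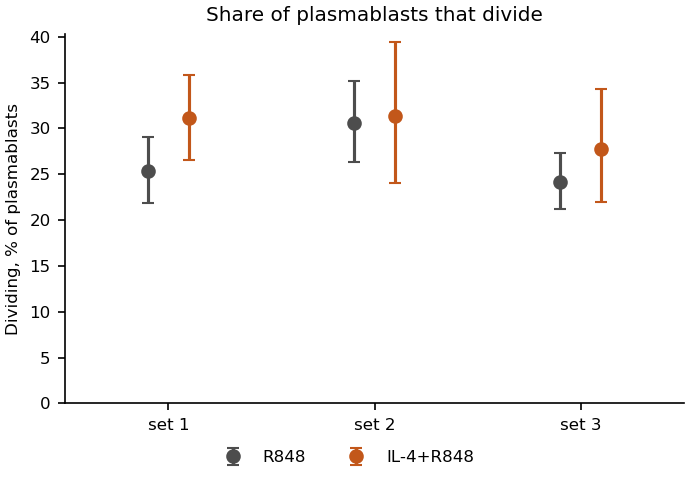
Percent of plasmablasts that were dividing, per set and treatment; bars are exact 95% binomial intervals, which cover counting error only. The 3 sets with IL-4+R848 lie at 27.78 to 31.33% and those with R848 at 24.15 to 30.61%, so the ranges overlap, and within each set the IL-4+R848 share is the higher.

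Few genes passed between treatments within dividing plasmablasts. Of 9094 genes tested in edgeR, 0 were higher and 2 (0.022%) lower with IL-4+R848, 406 had an unadjusted p under 0.05, and DESeq2 called 7 higher and 8 lower. Both lower genes were antibody variable genes. Ighv1-75 was the assigned gene of 11 of 466 R848 cells and 0 of 227 IL-4+R848 cells, and Ighv5-9-1 of 9 and 0. A count of 0 among 227 allows a share of up to 1.32%, a limit that covers counting error only, with the cells of 3 sums pooled. The call of Ighv5-9-1 was lost with the set as a block, without set 3 and without cells holding foreign markers, and that of Ighv1-75 without set 1 and under the stricter hashtag rule.

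None of the 23 lists held another gene that passed. Il4i1, an IL-4-inducible gene in B cells, stood at 9.39, 4.46 and 4.51 CPM with R848 (sets 1 to 3) and at 34.6, 20.5 and 27.3 with IL-4+R848. The groups did not overlap and the log2 fold change was 2.25 ± 0.32, but the edgeR adjusted p was 0.2687. It passed with DESeq2, with no filter on low counts and with immunoglobulin genes left out. Rflnb, an actin-binding protein, and Tmem123, a surface mucin, were chosen after their values were seen. Rflnb was at 1.34, 0.744 and 1.13 CPM against 8.72, 20.5 and 15.3 (adjusted p = 0.1617), and Tmem123 at 134.4, 125.2 and 115.3 against 186.5, 234.6 and 188.8 (adjusted p = 0.6831). Rflnb passed under the same 3 settings as Il4i1, and Tmem123 with DESeq2 and with immunoglobulin genes left out. Cd83, an activation marker chosen in the same way, was at 36.2, 30.7 and 29.7 CPM against 54.2, 53.7 and 49 (adjusted p = 0.2794), without overlap, and passed without cells under 10% immunoglobulin.

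Plasma cell and cell cycle genes gave no call. Prdm1 was at 46.7, 61.2 and 49.4 CPM with R848 and 57.3, 59.4 and 25.4 with IL-4+R848, Sdc1 at 136.3, 108.6 and 105.9 against 120.2, 123.7 and 123.3, and Cdk1 at 122.6, 104.4 and 149 against 139.5, 108.1 and 135.4. Their ranges overlapped. Xbp1 (0.14), Irf4 (0.19), Pax5 (0.13), Bach2 (0.05), Cxcr4 (0.23), Il4ra (0.30), Nfil3 (0.54), Rrm2 (-0.08), Ccnd2 (-0.08), Ccnd3 (0.01), Cdkn2c (0.16), Cdkn1b (-0.03) and Myc (0.09) all had an adjusted p of 0.9999. By median, MHC class II genes lay at 0.33 (12 of 13 above 0) and the IL-4 and STAT6 list at 0.38 (10 of 13), and replication genes at -0.15 (4 of 28), beside a median of 0.00 over all genes, with 0 called in each.

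In other plasmablasts 1 of 9249 genes (0.0108%) was higher and 0 lower, 544 had an unadjusted p under 0.05, and DESeq2 called 26 higher and 10 lower. The gene was Cd83, at 24.8, 24.2 and 23.3 CPM against 44.4, 45.7 and 48.5 (0.94 ± 0.07, adjusted p = 0.01769), a call lost without any 1 of the 3 sets, with the set as a block, under the stricter hashtag rule, without cells holding foreign markers and without cells under 10% immunoglobulin. The test of whether the IL-4 effect differed between dividing and other plasmablasts called 3 of 9548 genes (0.0314%; 1 upward, 0.0105%, and 2 downward, 0.0209%), all antibody variable genes, and 438 had an unadjusted p under 0.05.

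IgD cells (2 or more Ighd UMIs, not dividing and outside the plasmablast gate; 1466 to 2194 per sum) gave a comparison added after the data were seen. In them 661 of 10923 genes (6.05%) were higher and 488 (4.47%) lower with IL-4+R848. The IL-4 effect differed between dividing plasmablasts and IgD cells for 5 genes upward (0.0457%) and 14 downward (0.128%) of 10949 (0.174% in all). Nfil3, an IL-4-inducible transcription factor, was at 12.6, 11.5 and 14.5 CPM with R848 and 21.7, 20.3 and 12.3 with IL-4+R848 in dividing plasmablasts, but at 3.78, 3.93 and 3.35 against 69.7, 97.5 and 88.3 in IgD cells (difference -3.92 ± 0.29, adjusted p = 0.006016). Tmem123 rose in IgD cells from 178.1, 168.7 and 192 CPM to 745.8, 853 and 849 (difference -1.50 ± 0.15). Eaf2, a transcription elongation factor of plasma and germinal center cells, was at 445.4 to 582.9 CPM in all 6 sums of dividing plasmablasts and rose in IgD cells from 9.60, 13.2 and 8.70 to 43.8, 53.6 and 50.4 (difference -2.32 ± 0.19). The difference did not pass for Il4i1 (0.40 ± 0.41, adjusted p = 0.8782) or Cd83 (-0.31 ± 0.16, adjusted p = 0.6786). Sdc1 differed the other way (2.31 ± 0.19): it fell in IgD cells from 9.95, 7.87 and 10.1 CPM to 1.59, 1.85 and 2.45. Both treatments share each library. Plasmablasts were 8.06%, 7.82% and 10.56% of R848 cells (sets 1 to 3) and 7.79%, 3.28% and 4.25% of IL-4+R848 cells. The part of free RNA was not tested.

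**Figure D5:**
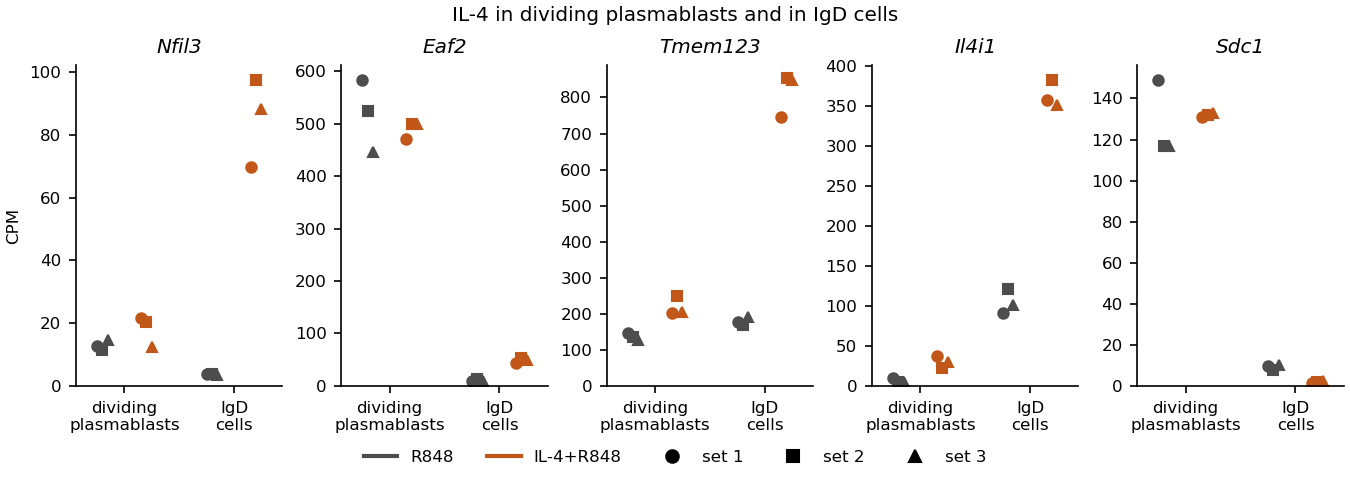
Level of Nfil3, Eaf2, Tmem123, Il4i1 and Sdc1 (CPM) in dividing plasmablasts and in IgD cells with R848 and with IL-4+R848, 1 point per set. Nfil3 reaches 69.7 to 97.5 in IgD cells with IL-4+R848 and 12.3 to 21.7 in dividing plasmablasts.

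Between treatments, 3 measures of surface antibodies and of antibody class by RNA, beside the hashtag, had sets that did not overlap. Each was at the smallest exact permutation p that 3 against 3 allows (0.1, adjusted 0.525 over 21 measures). CD23, the low-affinity IgE receptor that IL-4 induces, was at 5.23, 5.13 and 4.92 with R848 and 5.38, 5.81 and 5.86 with IL-4+R848 on the log2 scale. CD273 differed by 0.543 and the cells' own hashtag, a different tag in each treatment, by 0.944. The share of IgA among classed cells was 0.694%, 0.752% and 2.15% against 3.39%, 10.6% and 5.08%, resting on 6 and 12 cells.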

How the data were processed

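The data are raw UMI counts per gene and antibody tag in 3 droplet libraries, deposited by the authors as filtered count matrices; per the file headers they come from Cell Ranger 6.0.1. The mm10 build and Seurat 4.1.3 are named per the submitters' processing notes, without a role. Cells were kept at 500 or more genes, under 10% mitochondrial UMIs, and 1 hashtag at 64 or more UMIs and at least 4 times the other plus 1, which gives the treatment. No doublet caller was run. UMIs were added up over the cells of a class within each set and treatment and tested with edgeR 4.0.16 (R 4.3.3; TMM, filterByExpr, quasi-likelihood, Benjamini-Hochberg over all genes tested). Dividing plasmablasts were compared with other cells of the same sum with set and treatment as a block, and treatments without one. The 4 gate genes were not tested. Fits were tested on simulated data. Shares and surface levels used exact permutation tests (SciPy 1.17.1). DESeq2 1.42.0, no count filter, leaving out each set, other gates and hashtag limits, the block, a common UMI range, foreign markers and immunoglobulin genes left out were tried; the limit on immunoglobulin share, UMIs per cell and the IgD cells were chosen after seeing the data.

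A set is 1 library holding both treatments, so sets pair the treatments. Deviations from the treatment mean correlated between same-set sums at r = 0.185, 0.149 and 0.513 over 2695 genes in dividing plasmablasts. In other plasmablasts r was -0.0119, 0.213 and 0.2 over 2443 genes. Between sums of different sets r was -0.389 to 0.214 in dividing and -0.288 to 0.148 in other plasmablasts. The members and gene lists were chosen with earlier results of these data known. Named genes were up to 3 called members of each list and direction by size, 5 per direction outside the lists at 10 CPM or more and the same way in every pair, and 18 fixed genes; others are marked as chosen after their values were seen. Some genes are not reported here.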

Additional observations from a re-analysis of the deposited data

Results flagged for a closer look

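The IL-4 effect differed by an edgeR interaction test between dividing and other plasmablasts for 3 antibody variable genes: Ighv1-37 (log2 difference 11.85), Ighv1-75 (-9.02) and Ighv5-9-1 (-8.75). Ighv1-37 rested on few cells, with 92.93% of its 1880 UMIs in other plasmablasts from 1 cell. None of the 3 passed without set 2, and Ighv1-75 and Ighv5-9-1 did not pass without cells under 10% immunoglobulin.

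The same test against IgD cells, added after seeing the data, gave 19 genes. The effect was lower in dividing plasmablasts for Ighv1-75 (-9.77), Ighv5-9-1 (-10.01), Nfil3 (-3.92), St7 (-3.15), Eaf2 (-2.32), Klhdc2 (-2.19), Samsn1 (-1.58), Prelid2 (-1.57), Tmem123 (-1.50), Rab35 (-1.42), Cltc (-1.37), Ifi30 (-1.29), Cyb5r3 (-1.21) and Ptrh2 (-1.18). It was higher for Sdc1 (2.31), Ly6c2 (2.05), St8sia6 (1.37), Tmem154 (1.21) and Derl3 (1.14). St7 was at 8.20, 10.1 and 8.51 CPM with R848 and 14.2, 18.8 and 15.8 with IL-4+R848 in dividing plasmablasts, and at 4.90, 6.51 and 4.71 against 69.3, 98.5 and 97.6 in IgD cells. Ly6c2 fell in IgD cells from 18.6, 23.9 and 28 CPM to 6.29, 6.87 and 5.32, and Derl3 from 18.4, 19.2 and 22.5 to 10.8, 10.9 and 11.4.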

How the results depend on the processing

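The treatment comparisons rest on 3 sets and on 47 to 192 dividing plasmablasts per sum. Scaled per cell, dividing against other plasmablasts gave 8253 genes higher and 73 lower, and these log2 fold changes turned positive: Cdkn1b 0.63, Prdm1 0.49, Irf4 0.86, Xbp1 0.42, Tent5c 0.40, Bach2 1.12, Sdc1 0.41, Cd79b 0.35, Cd74 0.41, H2-Ob 0.23, S1pr1 0.31 (0.305), Klf2 0.31, Itgb7 0.28, Creld2 0.74 (0.735), Dnajc3 0.33, Ndufa1 0.22 (0.215), Trp53inp1 0.23, Isg20 0.17 (0.168), Zbp1 0.22, Tlr7 0.33, Nfkbia 0.34, Il4i1 0.52 and Il4ra 0.97. Bach2 was 0.0514 with division at 5 or more UMIs, 0.0684 against plasmablasts at 0 division UMIs, and -0.31 to 0.13 leaving out each set. Il4ra ranged from -0.578 to 0.0746 leaving out each set. Nfil3 was -0.037 in the common UMI range and -0.00869 without cells under 10% immunoglobulin. Against other dividing cells, leaving out each set gave Cxcr4 -0.65 to 0.10, Cdkn2c -0.149 to 0.0135 and Cdkn1b -0.151 to 0.0634, and Cdkn2c was 0.0799 without cells holding foreign markers. The cause was not tested for these changes of sign.

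For IL-4 in dividing plasmablasts, the replicate block gave 1 gene lower, DESeq2 7 higher and 8 lower, no count filter 2 higher, and immunoglobulin genes left out 5 higher and 0 lower. The stricter hashtag rule and leaving out foreign markers gave 1 lower each, and leaving out cells under 10% immunoglobulin 1 higher. Leaving out each set gave 0 to 1 higher and 1 to 6 lower. In other plasmablasts, the replicate block, the stricter hashtag rule, foreign markers and the 10% limit gave 0 higher, DESeq2 26 higher and 10 lower, no filter 8 and 4, immunoglobulin genes left out 23 and 2, and leaving out each set 0 to 2 and 3 to 7. For the difference of the effects, no replicate block gave 0 higher, DESeq2 3 higher and 5 lower, immunoglobulin genes left out 2 higher, division at 5 or more UMIs 1 lower, and plasmablasts at 0 division UMIs 0 higher and 4 lower. The stricter hashtag rule, the common UMI range and the 10% limit gave 0 and 0, and leaving out each set 0 to 1 and 0 to 1. In IgD cells leaving out each set gave 270 to 470 higher and 183 to 344 lower. The difference from IgD cells had 17 higher and 34 lower with no replicate block, 37 and 69 with DESeq2, 47 and 94 with immunoglobulin genes left out, and 1 to 4 and 6 to 10 leaving out each set.

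Signs of genes that did not pass with IL-4 also turned. Leaving out each set gave Il4ra -0.28 to 0.69, Prdm1 -0.40 to 0.10, Myc -0.38 to 0.37, Cdk1 -0.0655 to 0.127, Sdc1 -0.00930 to 0.20, Cxcr4 -0.14 to 0.45, Ccnd2 -0.31 to 0.22 and Ccnd3 -0.22 to 0.20. The stricter hashtag rule gave Il4ra -0.25, Myc -0.43, Ccnd3 -0.20 and Ciita -0.0499, and 0.0522 for Sdc1 in other plasmablasts. Division at 5 or more UMIs gave Cdk1 -0.0322 and Ccnd3 -0.0762. Foreign markers left out gave Cdk1 -0.0861 and Sdc1 -0.0562. The 10% limit gave Cdk1 -0.092, Rrm2 0.0722 and Sdc1 -0.0116. Ccnd3 was -0.0156 with the replicate block, -0.00462 with no filter and -0.00365 with immunoglobulin genes left out. The difference from IgD cells for Il4ra was -0.925 to 0.0187 leaving out each set. The IgG2c difference was -3.79 to 0.603 points leaving out each set. As shares of antibody UMIs, CD23 was -0.238 and CD138 -0.852.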
